A study of Homo sapiens with 4 samples.

Results

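LINC00858, LINC02994 and MIR3171HG are 3 long noncoding RNA genes. After scaling between libraries, their promoters held 2.04 to 2.67 times as many ATAC-seq fragments in MORC2 knockout cells as in wild-type cells. They were picked by symbol from the 28775 promoters of the count table, because their counts were low in wild-type cells and rose about 2-fold in the knockout. Their difference between knockout and wild type is therefore described here and not tested. The 4 libraries came from HEK293T, a human embryonic kidney line that carries adenoviral and SV40 sequences. The 2 wild-type (WT) libraries were labelled with no guide RNA and are described in the study's methods as independent replicates. The 2 MORC2 knockout (KO) libraries came from bulk Cas9-treated pools that were not cloned, KO 1 from sgRNA 1 and KO 2 from sgRNA 2, so guide and replicate cannot be told apart. A bulk pool can keep unedited cells. No other treatment was labelled for either group.

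MORC2 is an ATPase of the MORC family that compacts DNA and works with HUSH, a complex that silences retroelements and other transcribed foreign or repetitive sequences through H3K9 methylation. Long intergenic noncoding RNAs (LINC genes) are spliced transcripts that do not encode proteins and lie between protein-coding genes. A microRNA host gene (a symbol that ends in HG) is a longer transcript that contains a microRNA. In ATAC-seq, the Tn5 transposase inserts adapters where DNA is exposed, so that the number of fragments at a promoter reports how open its chromatin is and not how much RNA is made.

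MIR3171HG is named after the microRNA that lies within it, and the sequence of that microRNA is shown because its window lies beside the host gene promoter in the counts. The mature microRNA has 24 bases and maps to the minus strand of chr14:27633246-27633269 on GRCh38.p14 (RefSeq), with the seed, bases 2 to 8, shown in capitals.
hsa-miR-3171: aGAUGUAUggaaucuguauauauc
No other mature microRNA name among the 2370 in the same RefSeq table had this seed.

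Libraries held between 9435801 and 15152636 promoter fragments, and mitochondrial rows took 20.6% to 35.1% of them, least in KO 2. KO 2 was also the deepest library. Levels are given in CPM, the count divided by the library total after scaling by TMM, a factor per library that centres the bulk of promoters. The promoters of VIM (73.0 to 85.8 CPM over the 4 libraries) and NEFL (31.9 to 39.9 CPM), genes used in HEK293T cells, were open, and those of the blood gene PTPRC (1.11 to 1.77 CPM) and the liver gene ALB (1.66 to 2.44 CPM) were near closed. PAX2, a kidney gene, had a low level of 5.86 to 7.89 CPM, and promoter counts are a weak check of the line. The MORC2 promoter held 403 and 639 fragments in KO 1 and KO 2 and 247 and 267 in WT 1 and WT 2, and its log2 fold change in edgeR was 0.43 (adjusted p 0.000279). Its counts nearly equalled those of TUG1, the next gene, and do not report on the edit. The call did not hold with scaling by total count (adjusted p 0.240), with DESeq2 without its independent filter (0.363) or without KO 2 (0.0842).

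LINC00858 (Gene ID 170425, chromosome 10), a transcript studied in colorectal cancer, held 203 fragments in KO 1 and 340 in KO 2, against 86 in WT 1 and 91 in WT 2. After scaling these were 18.6, 19.9, 8.93 and 10.1 CPM. Each KO library exceeded each WT library, and the libraries of a group lay close together. The mean level was 19.3 ± 0.932 CPM (SD, n = 2) in KO and 9.51 ± 0.812 CPM (SD, n = 2) in WT. The fitted log2 fold change was 1.03 (SE 0.129), or 2.04-fold.

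LINC02994 (Gene ID 101928978, chromosome 4) showed the most even values of the 3 genes. Its promoter held 194 and 309 fragments in KO 1 and KO 2, and 84 and 80 in WT 1 and WT 2. The corresponding levels were 17.8, 18.1, 8.72 and 8.86 CPM. The groups did not overlap, and their means were 17.96 ± 0.231 CPM (SD, n = 2) for KO and 8.79 ± 0.0970 CPM (SD, n = 2) for WT. This gave a log2 fold change of 1.03 (SE 0.134), or 2.05-fold, and the 4 ratios of a KO to a WT library ranged from 2.01 to 2.08.

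MIR3171HG (Gene ID 728755, chromosome 14) had the lowest counts and the largest fold. Its promoter held 76 and 183 fragments in KO 1 and KO 2, and 27 and 37 in WT 1 and WT 2. These were 6.97, 10.7, 2.80 and 4.10 CPM. The groups did not overlap, but the libraries within each group were uneven, with KO 2 at 1.54 times KO 1 and WT 2 at 1.46 times WT 1. The KO mean was 8.85 ± 2.66 CPM (SD, n = 2) and the WT mean 3.45 ± 0.915 CPM (SD, n = 2), with a log2 fold change of 1.41 (SE 0.203), or 2.67-fold. The ratio of a KO to a WT library ranged from 1.70 to 3.83. Without KO 2 the log2 fold change was 1.02 and the promoter was no longer among those called by edgeR. It was also not called by DESeq2 without its independent filter. KO 2 had the greatest depth and the smallest mitochondrial share, and their part in this result was not tested.

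The counting intervals of KO and WT libraries were apart for both LINC genes and met for MIR3171HG. The 95% Wilson interval of LINC00858 ran from 16.2 to 21.4 CPM in KO 1 and from 8.21 to 12.4 CPM in WT 2, the KO and WT libraries nearest to each other. For LINC02994 it ran from 15.5 to 20.5 CPM in KO 1 and from 7.12 to 11.03 CPM in WT 2. For MIR3171HG the interval of KO 1 began at 5.57 CPM and that of WT 2 ended at 5.65 CPM, so that these libraries met. Fragments without molecular identifiers are not independent molecules, and the intervals cover counting error only. The genes were chosen on these counts, so the gaps between intervals are a description and no test of the difference.

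**Figure D1:**
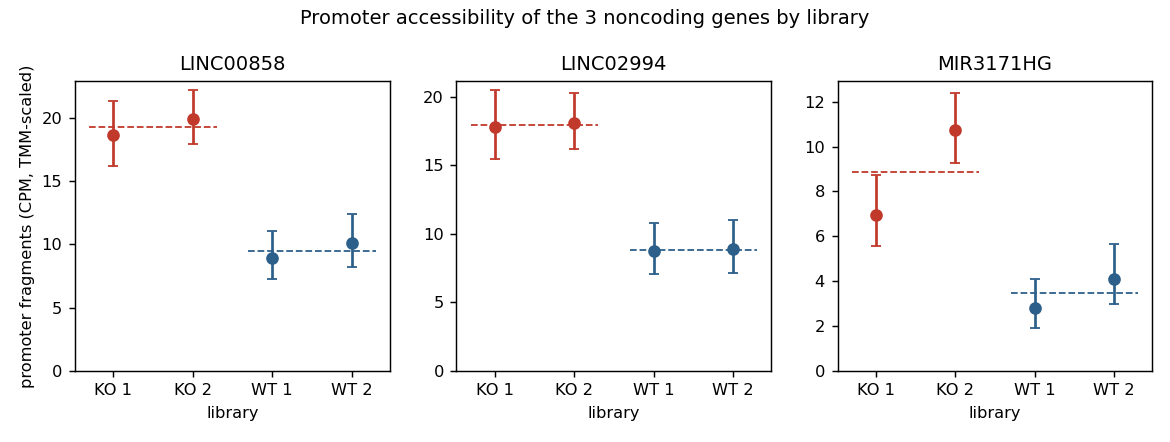
Promoter fragments of LINC00858, LINC02994 and MIR3171HG in each library, in TMM-scaled CPM. Points are single libraries, bars are 95% Wilson intervals of the count, and dashed lines are group means. Every KO library lies above every WT library in each panel, and the MIR3171HG libraries are the most spread relative to their means.

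Of these 3 promoters 3 were called higher in KO, against 3.45% of the 27647 promoters tested in the edgeR quasi-likelihood fit (adjusted p under 0.05). The 3 were chosen from this contrast, so nothing is read from the count. The groups did not overlap, with KO higher, at all 3 and at 25.2% of all tested promoters. Only 9 promoters in the table were called with a log2 fold change above 1, and LINC00858, LINC02994 and MIR3171HG were among them. By log2 fold change over all tested promoters, MIR3171HG ranked 4, LINC02994 ranked 12 and LINC00858 ranked 13. Among the 19833 promoters with a mean count of at least 50 they ranked 1, 6 and 7. MIR3171HG, with 27 and 37 fragments in WT, passed this minimum only through its KO counts. The ranks use the contrast from which the genes were chosen, so nothing is read from them.

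In WT cells the 3 promoters were not among the most closed. LINC00858 was more open than 42.0% of all tested promoters and than 83.4% of LINC promoters. LINC02994 was more open than 40.8% and 82.3%, and MIR3171HG, at 3.45 CPM, than 19.8% and 46.5%. In KO cells LINC00858 and LINC02994 stood above 52.3% and 51.0% of all promoters, near the middle of the table, and MIR3171HG above 41.6%.

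Promoters of like mean abundance over the 4 libraries had median log2 fold changes below 0. When promoters were divided into 10 classes by mean abundance, LINC00858 and LINC02994 fell into class 5 and MIR3171HG into class 4, of 2765 promoters each. The median log2 fold change was −0.033 in class 5, with 34 promoters called higher and 26 lower, and −0.18 in class 4, with 4 called higher and 48 lower. Class 5 had 3 promoters with a log2 fold change above 1, LINC00858 and LINC02994 among them. Class 4 had 1, MIR3171HG itself. The class mean includes the KO libraries, which raised the class of MIR3171HG. In WT this gene was more open than only 19.8% of tested promoters. The 3 genes were chosen for their rise, so nothing is read from their place within a class.

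**Figure D2:**
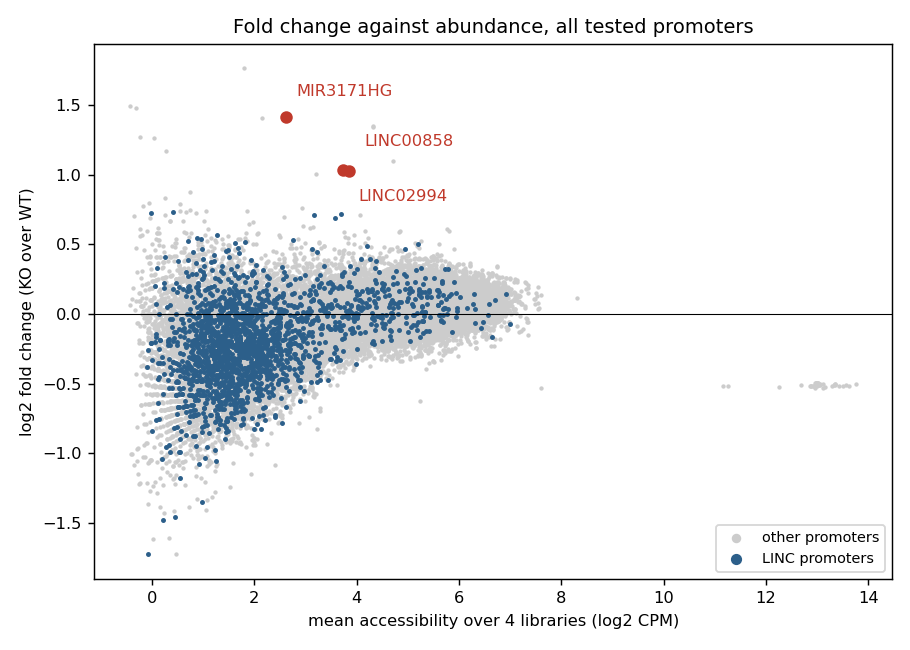
Log2 fold change of KO over WT against mean accessibility in log2 CPM over the 4 libraries, for all 27647 tested promoters. LINC promoters are in blue and the 3 noncoding genes in red; the red points, at 1.03, 1.03 and 1.41, stand above the cloud of promoters of like abundance, while LINC promoters of low abundance lie mostly below 0.

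The promoters beside each gene had no part in the choice. Of the 30 within 5 rows of the 3 genes 1 was called, where 4.45% of all tested promoters were called in either direction, a share near that background. LINC00858 lies between RGR, a retinal opsin, and CCSER2 in gene order. RGR held 33, 66, 44 and 30 fragments in KO 1, KO 2, WT 1 and WT 2, a log2 fold change of −0.17 (SE 0.24) with overlapping groups. LRIT1, a photoreceptor gene on the same side, had 46, 71, 41 and 41 fragments and a log2 fold change of −0.070. On the other side CCSER2 was far more open than LINC00858, with 469, 688, 347 and 346 fragments, and its log2 fold change was 0.16 (edgeR adjusted p 0.231). LINC01519, the next LINC gene, held 25, 28, 19 and 27 fragments, and its log2 fold change was −0.37 (adjusted p 0.503). Of the 5 promoters on each side of LINC00858, 0 of 10 were called, and their log2 fold changes ran from −0.41 to 0.19. At an unadjusted p under 0.05 there was 1, CCSER2.

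LINC02994 lies between GPAT3, an acyltransferase of triglyceride synthesis, and NKX6-1, a homeobox factor of pancreatic and neural development. Both of these were open promoters. GPAT3 held 438, 599, 354 and 303 fragments in KO 1, KO 2, WT 1 and WT 2, and NKX6-1 held 897, 1327, 777 and 649. Their log2 fold changes were 0.081 (SE 0.082) and 0.062 (SE 0.065), and in both the groups overlapped. Beyond them, ABRAXAS1, a component of a BRCA1 complex, and CDS1, an enzyme of phospholipid synthesis, had log2 fold changes of 0.11 and 0.052. Of the 5 promoters on each side 0 of 10 were called in edgeR, with log2 fold changes from −0.65 to 0.16, although 3 had an unadjusted p under 0.05. These were WDFY3-AS1, at −0.65, and WDFY3-AS2 and WDFY3, at 0.15 and 0.16, whose counts were nearly the same.

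MIR3171HG borders a stretch of barely accessible promoters on one side. The row before it is MIR3171, the microRNA that it hosts, whose window held only 5, 13, 10 and 15 fragments in KO 1, KO 2, WT 1 and WT 2. These were 0.459, 0.762, 1.04 and 1.66 CPM, so that the KO libraries were the lower pair here and the higher pair at the host gene promoter. In edgeR the log2 fold change of −1.05 (SE 0.44) was not called (adjusted p 0.152). LINC00645, the next row, held 16, 18, 25 and 17 fragments and was not called either, at −0.88 (adjusted p 0.113). The 5 rows on this side had log2 fold changes from −1.22 to −0.56, with KO below WT in every library pair, and 4 of them had an unadjusted p under 0.05, but edgeR called 0. Over both sides of MIR3171HG 5 of 10 rows had an unadjusted p under 0.05, as did 5626 of all 27647 tested promoters. Both KO libraries lay below both WT libraries at 25.4% of all tested promoters and at 38.9% of LINC promoters.

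On the other side of MIR3171HG, LINC01551, a LINC gene within 5 rows, was called higher in edgeR, where its log2 fold change was 0.26 (SE 0.074, adjusted p 0.0207). It held 546 and 855 fragments in KO 1 and KO 2 and 424 and 357 in WT 1 and WT 2, and it lost its call without KO 1, KO 2 or WT 2. It was the 1 neighbour called.

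**Figure D3:**
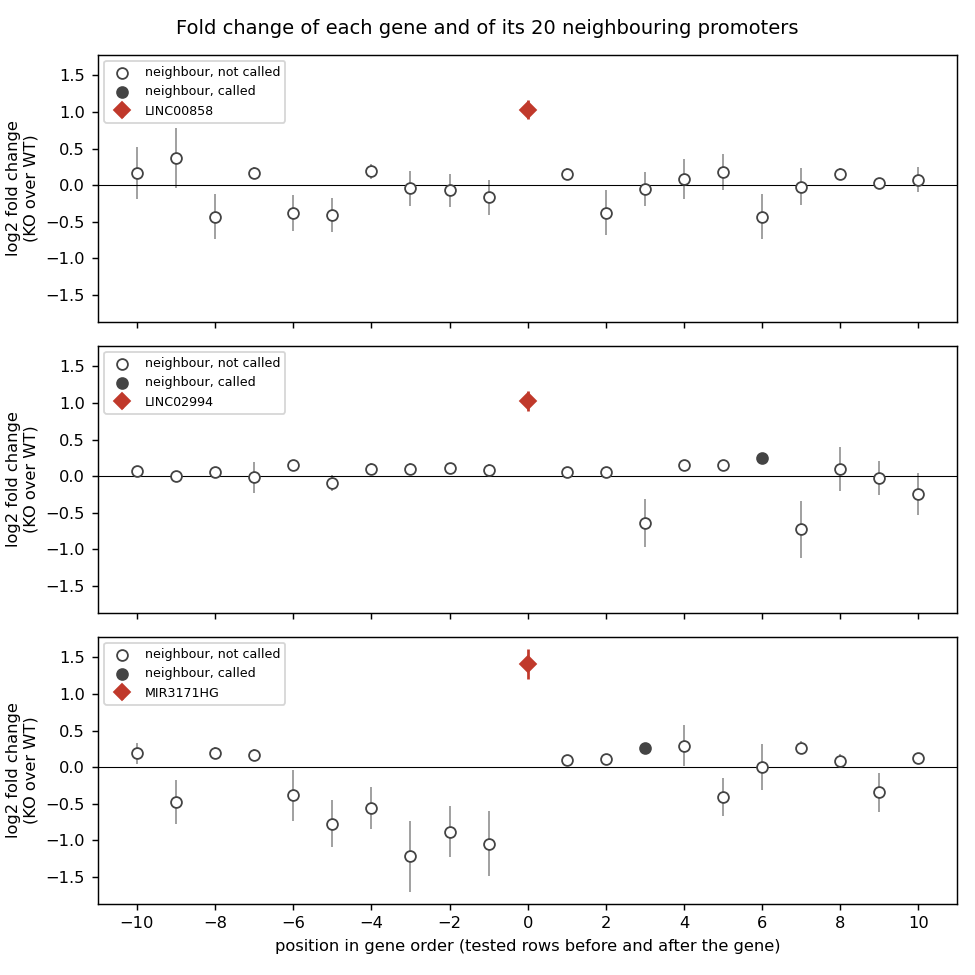
Log2 fold change of KO over WT, with its standard error, for LINC00858, LINC02994 and MIR3171HG and for the 10 tested promoters on each side of each in gene order. Filled points passed an adjusted p of 0.05; the red diamonds at 1.03, 1.03 and 1.41 stand alone, and the called neighbours are ARHGAP24 at 0.25 and LINC01551 at 0.26.

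A share within the neighbourhood needs no scaling between libraries. LINC00858 held 16.7% and 18.1% of the fragments of itself and its 10 nearest promoters in KO 1 and KO 2, and 9.39% and 10.4% in WT 1 and WT 2. The Wilson interval of KO 1 began at 14.7% and that of WT 2 ended at 12.6%. For LINC02994 these shares were 3.54% and 3.56% for KO, and 1.83% and 1.95% for WT. MIR3171HG held 3.38% and 4.81% in KO and 1.38% and 2.17% in WT. At each gene both KO shares exceeded both WT shares, although for MIR3171HG the intervals of KO 1, from 2.71% to 4.21%, and WT 2, from 1.58% to 2.98%, overlapped. The shares reuse the counts on which the genes were chosen and are likewise no test.

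**Figure D4:**
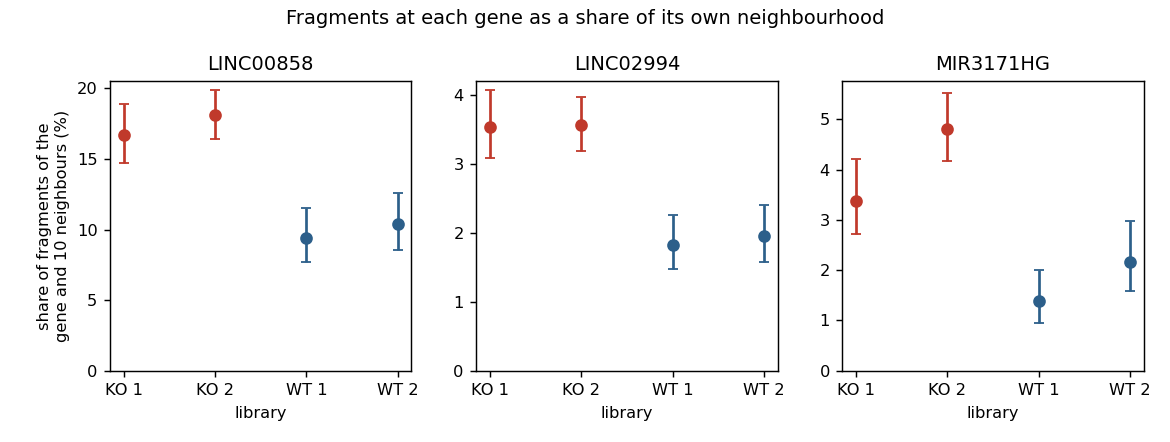
Fragments at each gene as a percentage of those at the gene and its 10 nearest promoters in gene order, in each library. Bars are 95% Wilson intervals; the KO libraries lie at 16.7% and 18.1% for LINC00858, 3.54% and 3.56% for LINC02994 and 3.38% and 4.81% for MIR3171HG, above both WT libraries in each panel.

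The class of LINC promoters had similar numbers of calls in each direction. Of 1920 LINC promoters tested, 24 were called higher in KO (1.25%), LINC00858 and LINC02994 included, and 27 lower (1.41%), against 3.45% and 0.995% of all promoters. Their median log2 fold change was −0.19, against −0.017 for all promoters, and their median WT level was 3.63 CPM, against 16.7 CPM. The split depended on the scaling. With offsets that remove the trend of fold change with abundance, 12 LINC promoters were called higher and 1 lower and the median was −0.015. With scaling by total count, edgeR called 5 higher and 0 lower, while 135 had an unadjusted p under 0.05, and the median was −0.048 beside 0.12 for all promoters. Without KO 2, which has the greatest depth, 3 were called higher and 2 lower. Calls over all promoters fell alongside, from 1229 to 42 without KO 2, 20 with total counts and 393 with the abundance offsets. LINC00858 and LINC02994 were the 2 LINC promoters with a log2 fold change above 1.

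Of the 5 LINC promoters with the most negative log2 fold changes among those called lower, LINC00290, LINC02089, LINC01493, LINC00906 and LINC00408, none held more than 28 fragments in any library. LINC00906, the most abundant of them, held 12 and 19 fragments in KO against 28 and 25 in WT, and its log2 fold change in edgeR was −1.35 (SE 0.33, adjusted p 0.00512). LINC00290 held 5 and 7 against 14 and 13, which gave −1.73 on the log2 scale (adjusted p 0.0153).

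Among microRNA host genes, 5 of 76 promoters were called higher in edgeR (6.58%, against 3.45% of all promoters), and MIR3171HG was 1 of the 5. In the same fit 0 were called lower (0.995% of all). An unadjusted edgeR p under 0.05 was seen at 5626 of all 27647 tested promoters and at 14 of the 76 host genes. DESeq2 called 0, and 5 had an unadjusted p under 0.05. In edgeR 1 was called without KO 2 and 2 without WT 2. Their median log2 fold change was −0.068 with TMM and 0.070 with scaling by total count. The others called were MIR4713HG, MIR2052HG, MIR4458HG and MIR4500HG. The last 3 had smaller log2 fold changes, of 0.46, 0.31 and 0.28. MIR4713HG (Gene ID 109729174), on chromosome 15, was near LINC00858 and LINC02994 in fold change and somewhat less open. It held 137 and 209 fragments in KO and 64 and 51 in WT, or 12.4 ± 0.219 CPM (SD, n = 2) against 6.15 ± 0.706 CPM (SD, n = 2). Its log2 fold change was 1.01 (SE 0.163), and the rows on either side of it had −0.043 and 0.0031. In fold change it lay just below LINC00858, the lowest of the 3 genes.

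Antisense and divergent noncoding promoters were listed by symbols that end in -AS or -DT, with or without a number. Of 1979 tested, 93 were called higher (4.70%) and 18 lower (0.910%), against 3.45% and 0.995% of all promoters. Their median log2 fold change was 0.0010. Without KO 2 edgeR called 2 of them, of 42 called over all promoters. Only ZNF22-AS1 exceeded a log2 fold change of 1, at 1.35 (SE 0.113), with 289 and 521 fragments in KO and 104 and 107 in WT. Its counts differed by less than 1% from those of ZNF22, the zinc finger gene beside it, so these rows mostly report the same fragments. After MIR4713HG the next in order of fold change was LINC02542, at 0.72. This order covers promoters of the LINC, host gene, antisense and divergent lists that were called higher without overlap of the groups.

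LINC00858 and LINC02994 had closely matching profiles over the 4 libraries. Their centred log2 CPM profiles differed by a root mean square of 0.060, whereas MIR3171HG differed from them by 0.28 and 0.32. Among 19816 other promoters with a mean count of at least 50, the profile nearest to both LINC genes was that of MIR4713HG, at 0.15 from LINC00858 and 0.094 from LINC02994. For LINC00858 the next were ZNF22 and ZNF22-AS1, each at 0.16. For LINC02994 they were PCDHGA1, a protocadherin, at 0.15 and LINC01876, another LINC gene, at 0.16. For MIR3171HG the nearest were ZNF22-AS1 and ZNF22, each at 0.21, and MIR4647 at 0.29, a row that was also higher in KO 2 than in KO 1. These distances rest on 4 values and describe the shape of the profile only.

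**Figure D5:**
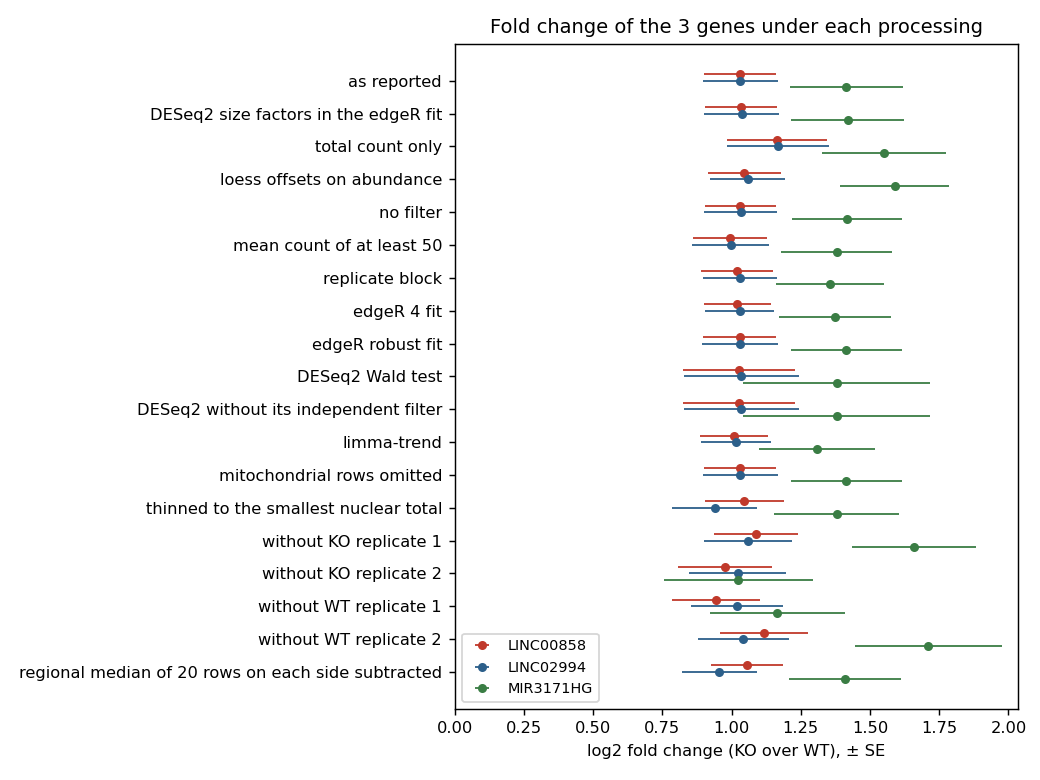
Log2 fold change of KO over WT, with its standard error, for LINC00858, LINC02994 and MIR3171HG under each processing tried. The values of LINC00858 lie between 0.94 and 1.16, those of LINC02994 between 0.94 and 1.17 and those of MIR3171HG between 1.02 and 1.71, lowest without KO 2.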

How the data were processed

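ATAC-seq fragments of 2 WT and 2 MORC2 KO libraries were analysed. The authors trimmed paired-end reads, aligned them with bowtie2 to the CHM13 assembly, kept properly paired reads of high mapping quality and removed duplicates with Picard. Per the labels, featureCounts (Subread 2.0.6) was among the tools; whether it or a count of fragment midpoints made this table is not given in the sources used here. The deposited values are raw fragment counts per promoter, 1 row per NCBI Gene ID, where the promoter is, by the study's methods, 2 kb around a gene start. RefSeq (GRCh38.p14) gave symbols for 28763 of 28775 IDs. Gene order is the row order of the table.

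Rows were filtered with filterByExpr (27647 kept), scaled by TMM and fitted with edgeR 4.0.16 (R 4.3.3), legacy quasi-likelihood, without covariates. P-values were two-sided and Benjamini-Hochberg adjusted over all rows, and an adjusted p under 0.05 was called. The study's methods call the WT libraries independent replicates, and the labels do not name cultures, so p-values measure the spread between these libraries. Lists were described by counts and medians. DESeq2 1.42.0 and limma 3.58.1 were alternatives, and DESeq2 without its independent filter was added after seeing the data.

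Members and lists were chosen with earlier results of these data known. Named are the 3 genes, the 2 rows on each side (some rows and 1 marker are not reported here), the 3 nearest profiles, and the 5 higher and 5 lower called noncoding promoters with the largest fold changes. WDFY3-AS1, WDFY3-AS2, WDFY3, LINC01551, ARHGAP24, LINC02542 and 3 host genes were named after their values were seen. Of the markers fixed, NEFM, CD3E and COL1A1 had 11.8 to 13.6, 2.18 to 2.87 and 20.1 to 23.9 CPM. The deviations of KO 1 and WT 1 from their group means were not correlated across promoters (correlation −0.000266). With 2 libraries per group this showed no pairing by replicate number and cannot exclude one. WT peaks and promoter sequences were not used here.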

Additional observations from a re-analysis of the deposited data

How the results depend on the processing

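LINC00858, LINC02994 and MIR3171HG were higher in KO under each alternative. LINC00858 moved by more than the spread between replicates only with total count scaling (1.16), which shifts the median of all promoters to 0.12. LINC02994, whose replicates were closest, had log2 fold changes of 1.17 under total counts, 1.06 under loess offsets, 0.997 at a mean count of at least 50, 0.939 in thinned counts and 0.956 after subtracting the median of the 20 rows on each side. Leaving out each library gave 0.944 to 1.12 for LINC00858, 1.02 to 1.06 for LINC02994 and 1.02 to 1.71 for MIR3171HG, lowest without KO 2. With the replicate block the 3 values were 1.02, 1.03 and 1.36, and calls over all promoters fell from 1229 to 765. The part of pairing by replicate number in this fall was not tested. DESeq2 with its independent filter gave the 3 promoters no adjusted p.

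The MORC2 promoter was not called with total count scaling (0.567) or DESeq2 without its independent filter (0.436), and ranged from 0.333 to 0.538 with each library left out.

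Counts of calls depended strongly on the processing. For LINC promoters, 51 as reported, they were 5 with total counts, 13 with loess offsets, 31 at a mean count of at least 50, 0 with DESeq2 (49 at an unadjusted p under 0.05), 2 without its independent filter, 28 with limma-trend, 24 in thinned counts, 107 at an adjusted p under 0.1 and 14 under 0.01. Leaving out each library gave 5 to 51, and the count was 5 without KO 2, 30 without KO 1 and 22 without WT 2. For microRNA host genes, 5 as reported, they were 2 with total counts, 3 each with loess offsets, a mean count of at least 50, the edgeR 4 fit, limma-trend and thinned counts, and 0 in both DESeq2 fits; leaving out each library gave 1 to 6, with 1 without KO 2 and 2 without WT 2. For antisense and divergent promoters, 111 as reported, they were 2 with total counts, 21 with loess offsets, 53 at a mean count of at least 50, 57 with the block, 63 with the edgeR 4 fit, 0 with DESeq2 (125 at an unadjusted p under 0.05), 1 without its filter, 56 with limma-trend and 48 in thinned counts; leaving out each library gave 2 to 130, with 63 without KO 1, 2 without KO 2 and 19 without WT 2. For the neighbours, 1 as reported, 0 were called with total counts (3 at an unadjusted p under 0.05), loess offsets, a mean count of at least 50 and both DESeq2 fits (1 each), and 0 in the rows within 2 on each side (3), but 2 within 10; leaving out each library gave 0 to 1. The cause was not tested for these settings. Calls over all promoters moved too, from 1229 to 20 with total counts, 6 with DESeq2 and 42 without KO 2. The microRNA's own window held 5 to 15 fragments, which limits its precision.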
